A study of Mus musculus with 6 samples.

Results

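Prostaglandins and leukotrienes are lipid signals made from arachidonic acid, and 10 genes of their synthesis and reception were compared between Tomato+ cells derived from injected mesenchymal stem cells (MSCs) and Tomato+ cells native to the mouse knee joint, called endogenous. The genes were chosen by name, as parts of the pathway, when earlier results of these data were already known. They are the cyclooxygenases Ptgs1 (NCBI gene 19224) and Ptgs2 (19225), the prostaglandin synthases Ptges (64292) and Hpgds (54486), the prostaglandin E2 receptors Ptger2 (19217) and Ptger4 (19219), and the lipoxygenase arm with Alox5 (11689), Alox5ap (11690), Alox15 (11687) and Ltc4s (17001). All 10 were among the 17854 genes of the deposited table, and all 10 passed the expression filter that left 14289 genes for testing.

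Tomato+ cells carry the red fluorescent protein tdTomato, switched on by a Cre recombinase that the Prrx1 regulatory sequence drives, so the label stays with every descendant of a Prrx1-expressing cell, osteoblasts included. The 3 MSC-derived libraries come from Tomato+ cells recovered from the knee cartilage of male C57BL/6 mice with osteoarthritis, which was induced by anterior cruciate ligament transection at 8 weeks of age and followed by 1 dose of Prrx1-lineage MSCs from the inguinal white adipose tissue of Prrx1-Cre; R26 tdTomato donors. The hosts themselves carried no Tomato label. The 3 endogenous libraries come from Tomato+ cells of the knee cartilage of mice of the donor genotype, matched to the hosts for age and sex, for which neither surgery nor injection is described. Surgery, injection, tissue of origin and host genotype therefore change together between the groups and cannot be told apart. Both groups are male C57BL/6, were digested with type II collagenase and sorted for Tomato, and carry the cell type label chondrocyte. The methods give 3 mice per group without saying whether each library is a single mouse, so p-values measure only the spread between these libraries, which may be technical.

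The libraries held between 22060628 and 24881796 expected counts each, and a floor of 3 counts corresponded to 0.121 to 0.136 CPM (counts scaled to a common library size), for counting error only. Endogenous replicate 1 stood apart, with 3459 genes at 0 counts against 1338 and 1395 in the other endogenous libraries and 1932 to 1948 in the MSC-derived libraries. The chondrocyte label was checked against 10 marker genes, and all 10 were lower in the MSC-derived cells, with a summed level of 2416 to 2494 TPM (transcripts scaled for gene length and to a fixed library total) against 26752 to 29653 TPM in the endogenous cells. Most of the MSC-derived sum was Prg4, at 2000 TPM against 3985 TPM in the endogenous cells (log2 fold change -0.51). The median log2 fold change of the 10 markers was -6.03. Col2a1, the main collagen of cartilage, was at 121 TPM in the MSC-derived cells and 12968 TPM in the endogenous cells. Prrx1 itself was at 4.61 TPM in the MSC-derived cells and 28.2 TPM in the endogenous cells (log2 fold change -2.15). All 10 pan-leukocyte markers were higher in the MSC-derived cells and summed to 15026 to 15534 TPM there, against 723 to 900.2 TPM in the endogenous cells. The same held for 10 of 10 macrophage markers (10276 to 10545 against 54.1 to 68.1 TPM), 10 of 10 neutrophil markers (139628 to 148499 against 7161 to 10437 TPM) and 8 of 8 eosinophil markers (2343 to 2406 against 189 to 251 TPM). None of the markers of these 4 leukocyte lists was at 0 in all libraries of a group. Of the mast cell list, 1 of 5 tested markers was higher (Hdc), and Tpsb2 and Cma1 were at 0 in every endogenous library. Of the platelet list, 1 of 8 markers was higher (Pf4) and 2 were lower, with a sum of 170 to 179.6 TPM against 34.7 to 57.8 TPM. Most of the MSC-derived sum was Pf4 (166 TPM, against 21.4 TPM in the endogenous cells). The median log2 fold change of the platelet list was -0.13. Endothelial markers were higher for 4 of 6 (26.3 to 29.2 against 8.25 to 14.1 TPM) and osteoblast markers lower for 8 of 8 (1352 to 1359.7 against 60243 to 74795 TPM). In the endogenous cells the osteoblast sum was thus above the chondrocyte sum. Every difference below, higher or lower, stands beside these differences in leukocyte, chondrocyte and osteoblast markers. Their part was not tested, since in bulk RNA fewer cells of a type and less RNA per cell cannot be told apart.

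In this pathway phospholipases release arachidonic acid from membranes, and cyclooxygenases and lipoxygenases then oxidise it. Cyclooxygenases convert it to an unstable endoperoxide that terminal synthases turn into prostaglandin E2, prostaglandin D2, prostacyclin or thromboxane. Lipoxygenases convert it to leukotrienes and related oxygenated lipids, a route best known from myeloid white blood cells. Prostaglandin E2 is a mediator of pain and matrix loss in osteoarthritic joints, and the inducible cyclooxygenase Ptgs2 is the target of many of the drugs used against that pain.

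The sequence upstream of the start site is shown for Ptgs1 and Ptgs2, the isozymes that moved in opposite directions, and for Hpgds and Ltc4s, the members with the greatest changes. The letters are the 250 bases before the RefSeq start in build GRCm38.p6, written 5′ to 3′ on the strand of the gene. The expression files were made on another build, mm9 by the submitters' processing notes, and hold no coordinates. The windows are chr2:36230176-36230425 (plus strand) for Ptgs1, chr1:150099781-150100030 (plus) for Ptgs2, chr6:65144731-65144980 (minus) for Hpgds and chr11:50238533-50238782 (minus) for Ltc4s. Capitals mark AGGAAGT (an ETS-type box), GGGCGG (a GC box) and TTGCGCAA (a C/EBP-type palindrome).
Ptgs1: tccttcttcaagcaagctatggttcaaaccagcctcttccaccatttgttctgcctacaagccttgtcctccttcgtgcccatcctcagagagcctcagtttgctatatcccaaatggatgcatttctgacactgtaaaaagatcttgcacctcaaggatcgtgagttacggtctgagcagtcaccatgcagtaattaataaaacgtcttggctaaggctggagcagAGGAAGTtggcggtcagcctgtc
Ptgs2: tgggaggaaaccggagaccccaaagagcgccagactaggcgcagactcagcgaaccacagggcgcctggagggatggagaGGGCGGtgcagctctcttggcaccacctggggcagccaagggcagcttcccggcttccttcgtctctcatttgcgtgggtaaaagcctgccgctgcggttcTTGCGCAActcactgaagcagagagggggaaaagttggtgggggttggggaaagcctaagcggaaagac
Hpgds: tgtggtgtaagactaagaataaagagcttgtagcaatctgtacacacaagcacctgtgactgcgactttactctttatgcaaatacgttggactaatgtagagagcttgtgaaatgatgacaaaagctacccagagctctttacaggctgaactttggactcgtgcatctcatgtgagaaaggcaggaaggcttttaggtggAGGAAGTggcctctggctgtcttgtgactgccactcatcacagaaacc
Ltc4s: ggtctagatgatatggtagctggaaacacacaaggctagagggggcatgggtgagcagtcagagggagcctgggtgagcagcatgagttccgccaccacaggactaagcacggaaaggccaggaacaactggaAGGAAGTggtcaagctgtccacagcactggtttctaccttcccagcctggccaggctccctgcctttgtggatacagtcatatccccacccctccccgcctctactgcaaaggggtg

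The RefSeq table held a promoter for 8 of the 10 genes, that is for all but Alox5ap and Alox15, and 4 motifs, none of which overlaps another in these windows, were searched on both strands. AGGAAGT was found in 3 of 8, namely Ptgs1 (23 to 17 bases before the start), Hpgds (48 to 42) and Ltc4s (117 to 111), while 7.69% of all 32851 promoters hold it in a window of the same length. Those 3 genes were higher in the MSC-derived cells, and so were Ptger2 and Alox5, whose windows lack these letters. GGGCGG was found in 4 of 8 (Ptgs2, Ptges, Ptger4 and Alox5) against 32.7% of all promoters, with the copies of Ptger4 on the opposite strand and, for a pair of them, sharing a base. TTGCGCAA was found in Ptgs2 alone (69 to 62 bases before the start) and in 0.164% of all promoters. TATAAA was found in 0 of 8 and in 12.4% of all promoters. The motifs were chosen with these sequences in view, so a share above that of all promoters is no evidence of an excess. A match of letters is a description of the window and was not tested against the expression data.

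Of the 10 genes, 7 were higher and 2 lower in the MSC-derived cells by edgeR's quasi-likelihood test with Benjamini-Hochberg adjustment over all tested genes at a threshold of 0.05, and Ptger4 was not called. Among all tested genes 31.3% were higher and 30.3% lower, so that a call in itself was common in this comparison. For 9 of the 10 genes the scaled counts of the groups stood clear of each other, against 72.4% of all tested genes. The median log2 fold change of the 10 genes was 2.59, and that of all tested genes was 0.05. Fold changes here and below come from edgeR on scaled counts and differ from the ratio of the TPM values printed beside them. On a log2 TPM scale the median of all genes was shifted by -0.40. The 10 genes together made up 1241 to 1266 TPM of each MSC-derived library and 201 to 231 TPM of each endogenous library. The plot of TPM by library shows how far the groups lay apart for each gene.

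**Figure D1:**
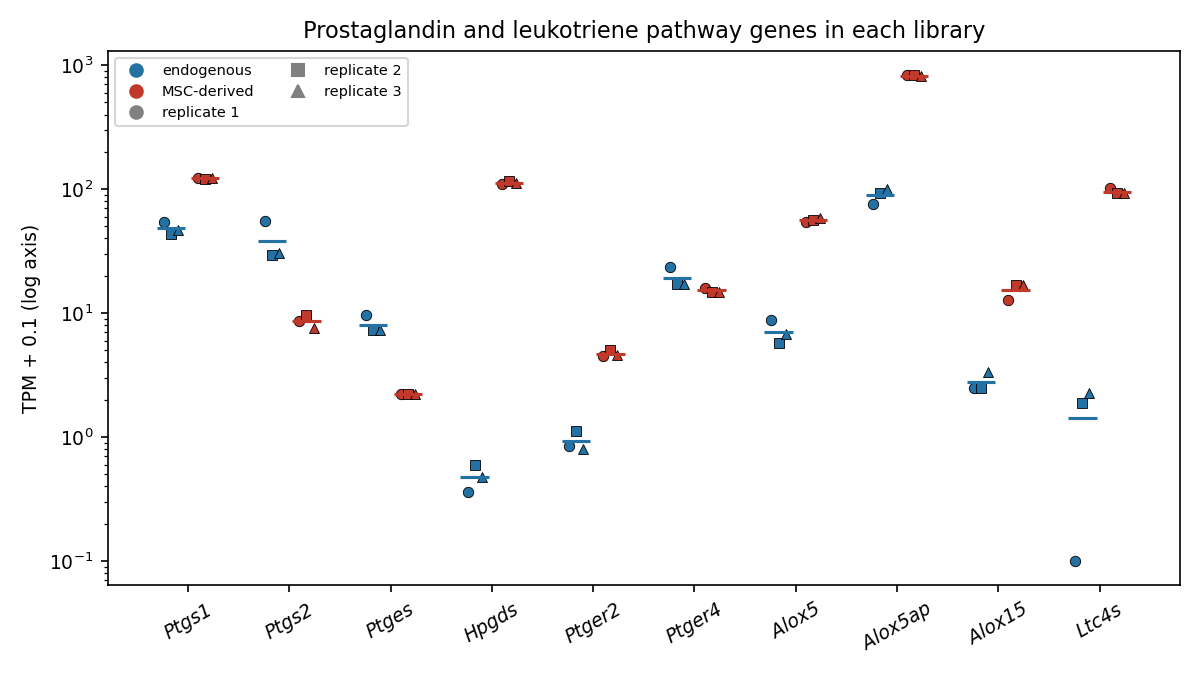
Level of each of the 10 genes in every library, as TPM plus 0.1 on a log axis, with a marker shape for each replicate number and a bar at the group mean (3 libraries per group). Ptgs1, Hpgds, Ptger2, Alox5, Alox5ap, Alox15 and Ltc4s sit higher in the MSC-derived cells, Ptgs2 and Ptges sit lower, and the groups come closest for Ptger4; the lowest point is Ltc4s in endogenous replicate 1, at 0 TPM.

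The first question was whether the cyclooxygenases moved together, and they moved in opposite directions. Ptgs1, the cyclooxygenase that many cells make constantly, was at 123, 121 and 122 TPM in MSC-derived replicates 1, 2 and 3 and at 54.6, 43.1 and 46.5 TPM in the endogenous replicates. Every MSC-derived library was above every endogenous one, and the rise was 3.51-fold (log2 fold change 1.81, standard error 0.07, adjusted p = 5.98e-07). Ptgs2, the inducible cyclooxygenase, was at 8.54, 9.51 and 7.53 TPM in the MSC-derived replicates and at 55.4, 29.3 and 30.4 TPM in the endogenous ones. All endogenous libraries were above all MSC-derived ones, replicate 1 most of all, and Ptgs2 was 3.25-fold lower in the MSC-derived cells (log2 fold change -1.70, standard error 0.21, adjusted p = 0.000283). Endogenous replicate 1 held 1.85 times the mean Ptgs2 level of the other endogenous libraries, and without it the log2 fold change was -1.49.

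Within a library, the balance between the isozymes shifted. Ptgs2 made up 6.52%, 7.30% and 5.79% of the summed TPM of the pair in the MSC-derived replicates and 50.4%, 40.5% and 39.5% in the endogenous replicates. The ratio of Ptgs2 to Ptgs1 was thus 10.9-fold lower in the MSC-derived cells, a difference of -3.45 on the log2 scale. Of 3 such ratios compared, this was the greatest difference, and its exact two-sided permutation p was 0.1 (0.15 after adjustment over the 3 ratios), which is the smallest p that 3 against 3 libraries allow. The sum of the pair was 131, 130.3 and 130.0 TPM in the MSC-derived cells against 110.0, 72.4 and 77.0 TPM in the endogenous cells, as the stacked bars by library show.

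**Figure D2:**
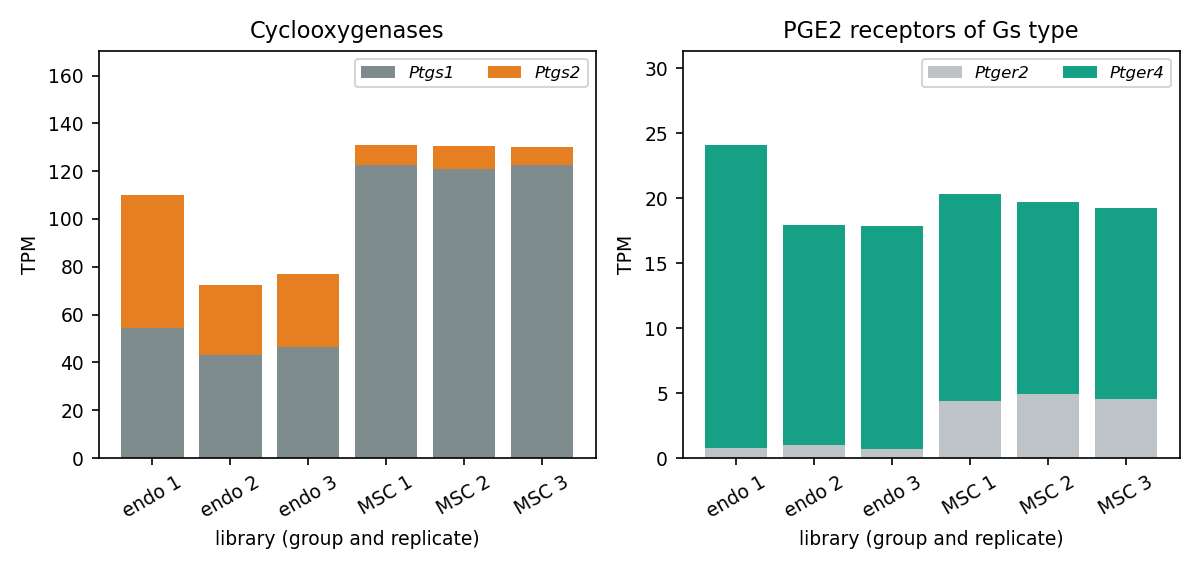
Stacked TPM of the cyclooxygenases Ptgs1 and Ptgs2 (left) and of the prostaglandin E2 receptors Ptger2 and Ptger4 (right) in each of the 6 libraries (endo, endogenous; MSC, MSC-derived), with axes from 0. Ptgs2 forms 39.5% to 50.4% of its pair in the endogenous libraries and 5.79% to 7.30% in the MSC-derived ones, and Ptger4 forms most of its pair in all 6 libraries.

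The terminal synthases also parted. Ptges, the inducible microsomal synthase of prostaglandin E2 that usually works beside Ptgs2, was at 2.14, 2.11 and 2.12 TPM in the MSC-derived replicates and at 9.56, 7.19 and 7.21 TPM in the endogenous ones. No library of a group reached into the other group, and Ptges was 2.75-fold lower in the MSC-derived cells (log2 fold change -1.46, standard error 0.16, adjusted p = 0.000165). Hpgds, the hematopoietic synthase of prostaglandin D2, was at 109.8, 117 and 111 TPM in the MSC-derived replicates and at 0.26, 0.50 and 0.38 TPM in the endogenous ones. These levels rest on 5511, 5277 and 5095 counts against 6, 15 and 17 counts, above the floor in every library. Hpgds had the greatest change of the 10 genes, at 394-fold (log2 fold change 8.62, standard error 0.22, adjusted p = 1.15e-07), and ranged from 6.37 to 8.87 on the log2 scale over the alternatives tried.

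Among the other prostanoid synthases, 3 of 8 tested genes were higher and 2 were lower, near the shares of 31.3% and 30.3% over all tested genes. The counts by role given here and below cover 4 to 8 genes each and are read as no more than descriptions beside those shares. Tbxas1, the thromboxane synthase, was at 178 ± 1.72 TPM in the MSC-derived cells and 4.15 ± 0.911 TPM in the endogenous cells (SD, n = 3 each, log2 fold change 3.84, adjusted p = 6.45e-07). Prxl2b, a synthase of prostaglandin F and its amides, was at 481 ± 12.1 TPM and 11.3 ± 7.81 TPM (log2 fold change 5.80, adjusted p = 6.02e-05). Ptgis, the prostacyclin synthase, ran the other way, at 6.19 ± 0.654 TPM against 301 ± 13.2 TPM (log2 fold change -5.17, adjusted p = 1.27e-07). Ptgds, the lipocalin-type synthase of prostaglandin D2, held 0, 1 and 0 counts in the MSC-derived replicates and 45, 64 and 108 counts in the endogenous ones (adjusted p = 0.000290). The 2 synthases of prostaglandin D2 were thus called in opposite directions, Hpgds higher and Ptgds lower. Ptges2 and Ptges3, the synthases of prostaglandin E2 that are made constantly, did not pass the test, with log2 fold changes of 0.67 and 0.05 and overlapping groups. Without endogenous replicate 1 these were 0.21 and 0.19 by edgeR, and Ptges3 was then called (adjusted p = 0.0117). The sign of Ptges3 was reversed under 4 of 17 alternatives.

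Upstream of the cyclooxygenases, 3 of 5 tested genes for release of arachidonic acid were higher and 1 was lower. Pla2g4a, the cytosolic phospholipase, was at 22.1 ± 0.957 TPM in the MSC-derived cells and 7.05 ± 0.703 TPM in the endogenous cells (SD, n = 3 each, log2 fold change 2.08, adjusted p = 1.63e-05). The secreted phospholipases moved apart, since Pla2g2d held 310, 270 and 225 counts in the MSC-derived replicates against 1, 8 and 0 counts, and Pla2g5 was at 0.940 ± 0.360 TPM against 74.2 ± 6.39 TPM (log2 fold change -5.87, adjusted p = 1.22e-06). Of the genes for prostaglandin transport and breakdown, the 3 breakdown enzymes Hpgd, Ptgr1 and Ptgr2 were higher, Ptgr2 not by limma on TPM, and the transporters Slco2a1 and Abcc4 were not called. Hpgd, the enzyme that inactivates prostaglandins, was at 188 ± 2.88 TPM against 58.7 ± 12.2 TPM (log2 fold change 2.13, adjusted p = 2.13e-06).

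The receptors of prostaglandin E2 that raise cyclic AMP, Ptger2 and Ptger4, did not behave alike. Ptger2 was at 4.40, 4.90 and 4.53 TPM in the MSC-derived replicates and at 0.75, 1.02 and 0.70 TPM in the endogenous ones, on 289, 297 and 265 counts against 32, 50 and 36 counts. The groups did not overlap, and the rise was 6.83-fold (log2 fold change 2.77, standard error 0.26, adjusted p = 6.17e-05). Ptger4 was at 38.4, 35.7 and 35.8 CPM scaled by TMM in the MSC-derived replicates and at 37.8, 31.7 and 31.8 in the endogenous ones, so the groups overlapped. Its log2 fold change was 0.12 (standard error 0.11, 95% interval -0.15 to 0.39, adjusted p = 0.400), and an interval of that width does not show that the groups are alike. In TPM the sign was the reverse, with 15.9, 14.8 and 14.7 against 23.4, 16.9 and 17.1 TPM and a log2 difference of -0.31 by limma (adjusted p = 0.105), beside a shift of -0.40 for the median of all genes on that scale. Ptger4 made up 78.3%, 75.2% and 76.4% of the summed TPM of the pair in the MSC-derived replicates and 96.9%, 94.3% and 96.1% in the endogenous ones. The log2 ratio of Ptger4 to Ptger2 differed by -2.69 between the groups, a 6.44-fold change (exact permutation p = 0.1, 0.15 adjusted over the 3 ratios).

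Of the other prostanoid receptors, 1 of 5 tested was higher and 1 was lower. Ptgir, the prostacyclin receptor, had a log2 fold change of 0.97 (adjusted p = 0.00287), a call that limma on TPM did not make, while the synthase of its ligand was lower. Ptgfr, the receptor of prostaglandin F2 alpha, was at 0.823 ± 0.180 TPM in the MSC-derived cells and 5.31 ± 0.723 TPM in the endogenous cells (SD, n = 3 each, log2 fold change -2.26, adjusted p = 0.000221). The prostaglandin D2 receptors Ptgdr and Ptgdr2 had means of at most 0.0467 TPM in either group and were too low to be tested.

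All 4 members of the lipoxygenase arm were higher in the MSC-derived cells. Alox5, the 5-lipoxygenase that starts leukotriene synthesis, was at 54.7, 55.8 and 58.9 TPM in the MSC-derived replicates and at 8.65, 5.67 and 6.68 TPM in the endogenous ones. The groups lay well apart, and the rise was 11.1-fold (log2 fold change 3.47, standard error 0.13, adjusted p = 4.48e-07). Alox5ap, whose protein presents arachidonic acid to Alox5, was at 827, 832 and 810.4 TPM against 75.8, 92.7 and 99.5 TPM. It rose 12.4-fold (log2 fold change 3.63, standard error 0.15, adjusted p = 8.63e-07) and was at the 99.2nd percentile of all genes in the MSC-derived cells and at the 91.7th in the endogenous cells. The TPM ratio of Alox5ap to Alox5 was 15.1, 14.9 and 13.8 in the MSC-derived replicates and 8.77, 16.4 and 14.9 in the endogenous ones. These ratios overlapped, with a log2 difference of 0.20 (exact permutation p = 0.8, also 0.8 adjusted over the 3 ratios) that was -0.078 without endogenous replicate 1.

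Ltc4s, which joins the leukotriene to glutathione and so makes the first cysteinyl leukotriene, was at 102, 92.3 and 92.7 TPM in the MSC-derived replicates and at 0, 1.80 and 2.19 TPM in the endogenous ones. The endogenous values rest on 0, 11 and 15 counts and the MSC-derived values on 944, 828 and 789 counts, so the direction was plain while the size depended on very low counts. The fitted log2 fold change was 6.53 (standard error 0.57, adjusted p = 4.10e-05), 5.91 without endogenous replicate 1, and 5.91 to 7.15 with any single library left out. Alox15, the 12/15-lipoxygenase of the mouse, was at 12.6, 16.6 and 16.7 TPM in the MSC-derived replicates and at 2.37, 2.37 and 3.24 TPM in the endogenous ones. The groups did not overlap, and the rise of 5.28-fold (log2 fold change 2.40, standard error 0.20, adjusted p = 3.27e-05) was the least of the lipoxygenase arm. The plot of fold changes sets the 10 genes side by side, with the span over the alternatives behind each.

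**Figure D3:**
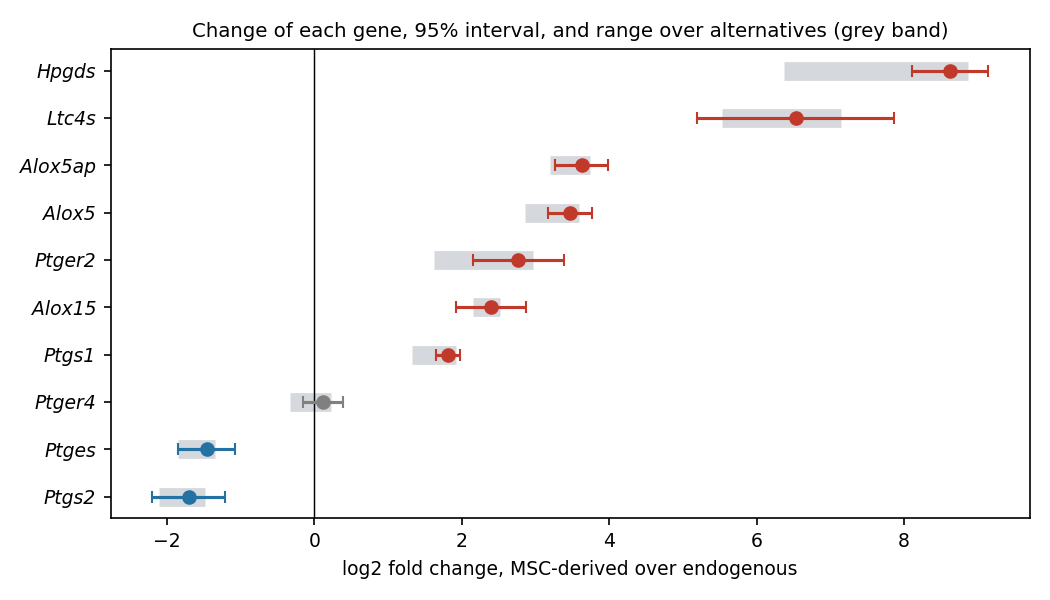
Log2 fold change of each of the 10 genes, MSC-derived over endogenous cells, with its 95% interval by edgeR (points and bars) and its range over 17 alternative settings (grey bands). Of the 10 genes 7 lie above 0 and 2 below it in every setting, and Ptger4 is the gene whose interval and band cross 0.

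The remaining genes of leukotriene synthesis and breakdown numbered 7 tested, of which 5 were higher and 2 lower. Lta4h, the enzyme that makes leukotriene B4 and so competes with Ltc4s for the same intermediate, was at 155 ± 1.67 TPM in the MSC-derived cells and 63.5 ± 11.8 TPM in the endogenous cells (SD, n = 3 each, log2 fold change 1.74, adjusted p = 3.31e-06). Cyp4f18, which inactivates leukotriene B4, was at 87.0 ± 1.15 TPM against 10.04 ± 4.24 TPM (log2 fold change 3.53, adjusted p = 8.38e-05). Both genes called lower act on cysteinyl leukotrienes after Ltc4s. Dpep1, a dipeptidase, was at 1.43 ± 0.193 TPM against 109.8 ± 7.07 TPM (log2 fold change -5.85, adjusted p = 6.88e-08), and Ggt5, a glutamyl transferase, was at 7.89 ± 0.914 TPM against 28.9 ± 11.6 TPM (log2 fold change -1.49, adjusted p = 0.00109). Dpep2, a related dipeptidase, was higher by 1.01 on the log2 scale (adjusted p = 0.00970). Mgst2 was higher, at 60.7 ± 7.76 TPM against 20.0 ± 10.9 TPM (log2 fold change 2.10, adjusted p = 0.000772). Mgst3 was called at an adjusted p of 0.0480 and lost its call under 12 of 17 alternatives.

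On the receptor side, 3 of 6 tested receptors of leukotrienes and related lipids were higher and 0 were lower. Ltb4r1, the high-affinity receptor of leukotriene B4, was at 92.4 ± 3.39 TPM in the MSC-derived cells and 10.9 ± 2.77 TPM in the endogenous cells (SD, n = 3 each, log2 fold change 3.53, adjusted p = 9.88e-07). Cysltr1, a receptor of cysteinyl leukotrienes, held 95, 105 and 139 counts against 1, 5 and 1 counts (adjusted p = 0.000301). Fpr2, a receptor of formyl peptides and lipoxins, was at 29.3 ± 1.56 TPM against 2.08 ± 1.21 TPM (log2 fold change 4.20, adjusted p = 0.000158). Of the other lipoxygenases and the epoxide hydrolase Ephx2, 1 of 4 tested genes was higher and 2 were lower. The higher gene was Aloxe3 (log2 fold change 3.89, adjusted p = 0.00633), on 180, 161 and 191 counts against 0, 21 and 13 counts. Ephx2 was lower (log2 fold change -2.96, adjusted p = 8.28e-05). Alox12, the platelet-type lipoxygenase, was lower at 1.93 ± 0.0361 TPM against 20.3 ± 1.18 TPM (log2 fold change -2.95, adjusted p = 1.07e-06), the reverse of Alox5 and Alox15.

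In all, 46 of 48 further pathway genes were in the table and 40 were tested, of which 19 were higher, 8 lower and 13 not called, with a median log2 fold change of 0.58, beside 31.3% higher and 30.3% lower among all tested genes. Without endogenous replicate 1, 23 were higher and 13 lower, and calls over all genes rose too, from 4468 to 5563 higher and from 4333 to 5686 lower (of 14728 then tested). The 10 genes above kept 7 higher and 2 lower. The plot of the wider pathway orders these genes by role.

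**Figure D4:**
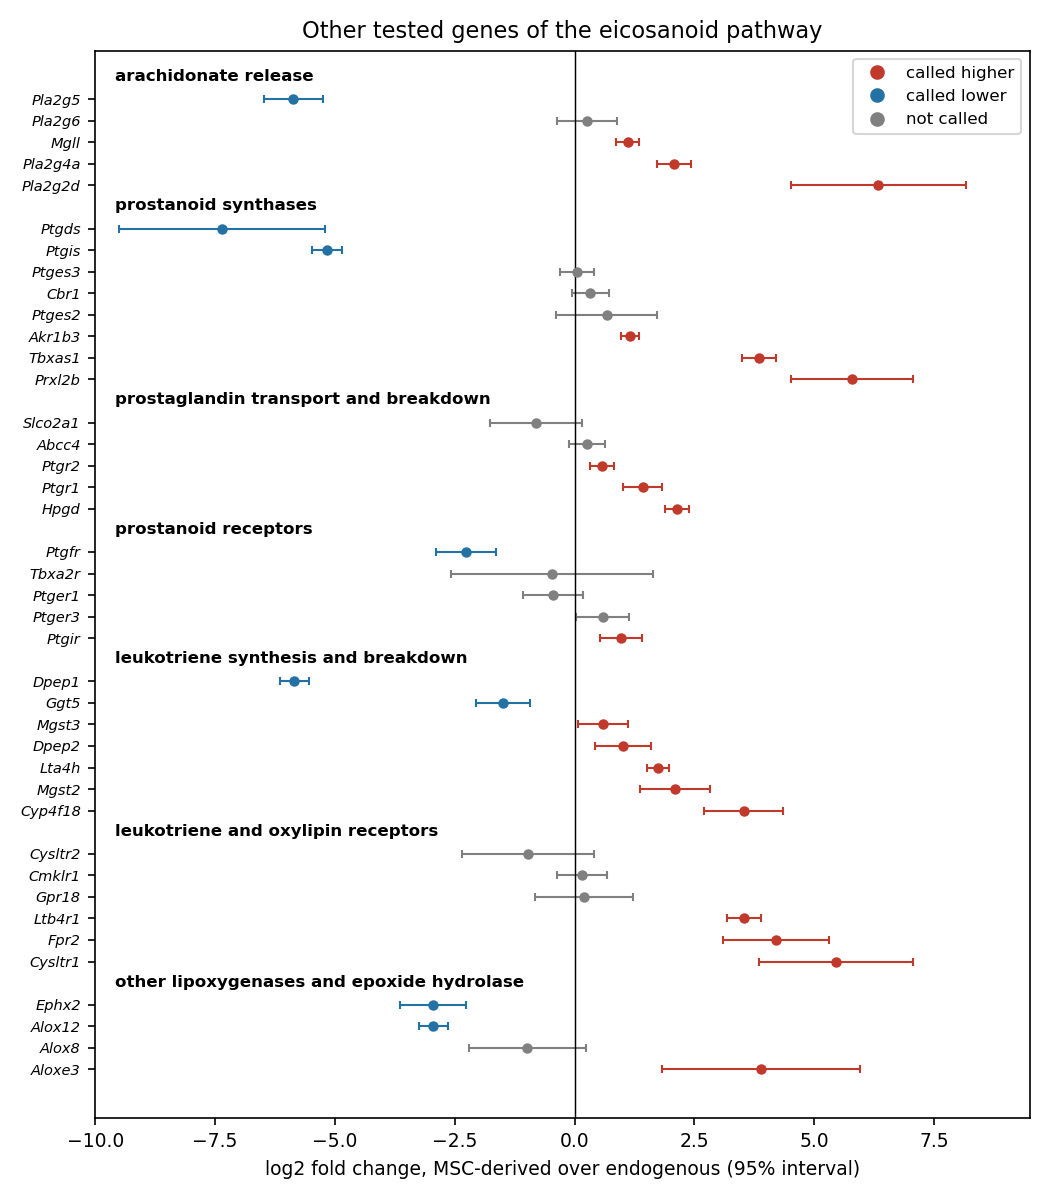
Log2 fold change, MSC-derived over endogenous cells, with 95% intervals by edgeR, for the 40 other tested pathway genes grouped by role and coloured by call. Increases and decreases occur together among the genes for arachidonate release, the prostanoid synthases, the prostanoid receptors, the genes of leukotriene synthesis and breakdown, and the other lipoxygenases, while no transport and breakdown gene and no leukotriene receptor was called lower in this fit (without endogenous replicate 1, Slco2a1 and Cysltr2 were).

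By level in TPM, the order of the 10 genes differed between the groups. In the MSC-derived cells it ran Alox5ap, Ptgs1, Hpgds, Ltc4s, Alox5, Alox15, Ptger4, Ptgs2, Ptger2 and Ptges, and of these neighbours Alox15 and Ptger4 alone overlapped between libraries. In the endogenous cells it ran Alox5ap, Ptgs1, Ptgs2, Ptger4, Ptges, Alox5, Alox15, Ltc4s, Ptger2 and Hpgds, with overlaps between Ptgs1 and Ptgs2, between Ptges and Alox5, and between Ltc4s and Ptger2. Hpgds was thus the third in 1 group and the last in the other, while Ptges was the last in the MSC-derived cells. Alox5ap alone made up 65.3% to 65.7% of the summed TPM of the 10 genes in the MSC-derived libraries and 32.9% to 46.5% in the endogenous libraries.

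The spread between libraries was wider among the endogenous cells, where the coefficient of variation of TPM had a median of 20.0% over the 10 genes (12.3% to 87.8%), against 4.08% (0.719% to 15.2%) among the MSC-derived cells. Endogenous replicate 1 was above the mean of the other endogenous libraries for Ptgs2 (1.85 times), Alox5 (1.40), Ptger4 (1.37), Ptges (1.33) and Ptgs1 (1.22). It was below that mean for Ptger2 (0.872 times), Alox15 (0.845), Alox5ap (0.789) and Hpgds (0.591), and it held no Ltc4s count.

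Since leukocyte markers differed between the groups, the 10 genes were also set against the summed TPM of the 10 pan-leukocyte markers in the same library, as a description with no test. The marker sum was 15026 to 15534 TPM in the MSC-derived cells against 723 to 900.2 TPM in the endogenous cells. A gene at equal TPM in both groups is therefore higher in the endogenous cells on this scale. The share of all genes on either side was not computed, so the counts that follow are no result about the 10 genes. Per 1000 TPM of these markers, 8 of the 10 genes were higher in the endogenous cells and 2 were higher in the MSC-derived cells, with no overlap between the groups for any gene. The 2 were Hpgds, at 7.07 to 7.79 against 0.360 to 0.572 TPM per 1000 TPM, and Ltc4s, at 6.14 to 6.54 against 0 to 2.43. Alox5ap went the other way on this scale, at 53.3 to 55.4 against 104.8 to 110.5, and so did Alox5, at 3.52 to 3.92 against 6.49 to 11.96. Ptgs2, lower in the MSC-derived cells on either scale, was at 0.501 to 0.633 against 33.5 to 76.6. Relative to these markers the rise of Hpgds was therefore 16.4-fold and that of Ltc4s 4.20-fold. The rises of Ptgs1, Ptger2, Alox5, Alox5ap and Alox15 were each smaller than the rise of the marker sum. Tyrobp and Fcer1g were the largest parts of that sum, at 5352 and 4889 TPM in the MSC-derived cells. By edgeR, Coro1a and Arhgdib had log2 fold changes of 3.42 and 3.14, below the 3.47 of Alox5 and the 3.63 of Alox5ap. The other markers of the list rose more than either gene. The folds relative to the marker sum hold for the pan-leukocyte list alone. The macrophage sum differed by more, at 10276 to 10545 TPM in the MSC-derived cells against 54.1 to 68.1 TPM in the endogenous cells. No gene was set against the macrophage sum.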

How the data were processed

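The data are bulk RNA sequencing of 3 MSC-derived and 3 endogenous libraries (total RNA, Trizol, TruSeq). Reads were cleaned by the authors with SOAPnuke, mapped to the genome (HISAT2) and to a gene set (Bowtie2), and summed per gene by RSEM. The submitters' processing notes name Bowtie2 2.2.5, RSEM 1.2.12 and mm9, while the paper gives other versions of Bowtie2 and RSEM. Which versions made the deposited counts is not settled by these sources. For each library the authors deposited expected counts estimated by RSEM, TPM and FPKM, the last of which summed to 808701 to 813572 in MSC-derived and 504768 to 573603 in endogenous libraries and was not used for levels. A further deposited signal, the count times a factor per library set by the authors, served only to check the counts. The 8 deposited columns of group averages were not used.

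Expected counts were rounded to whole numbers (20.6% of values changed) and entered the quasi-likelihood test of edgeR 4.0.16, run in R 4.3.3 (TMM, filterByExpr with a minimum count of 10, glmQLFit, glmQLFTest, no covariate), with Benjamini-Hochberg adjustment over 14289 genes and a threshold of 0.05. TPM served for levels between genes, given as mean ± SD over 3 libraries. Ratios within a library were compared as log2 ratios of TPM + 0.1 by exact permutation tests. The code was tested on simulated data, where a first limit on the share of changed genes recovered was not met and was then set for genes with higher counts alone, so that real changes of genes with low counts can go uncalled. The replicate libraries differed by more than sampling noise, with a chi-square statistic per gene of 3.84 to 4.26 between MSC-derived libraries. It was 5.40 between endogenous replicates 2 and 3, and 57.5 and 54.3 between them and replicate 1. Such a spread does not show that the libraries are separate mice. Each library was counted as 1 replicate. Alternatives were DESeq2 1.42.0, limma 3.58.1 on log2(TPM + 1) and log2(TPM + 0.1), other scalings, filters and thresholds, the replicate number as a block, and each library left out. The 10 genes, the wider pathway list and the marker lists were chosen with earlier results of these data known. The motifs were chosen with the sequences in view. The genes named are the 10, markers beside them, Prrx1, and genes of the wider list by role. Those of the wider list were named mostly but not strictly by size of change.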

Additional observations from a re-analysis of the deposited data

How the results depend on the processing

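Under all 17 alternatives 7 of the 10 genes were called higher and 2 lower, and no gene but Ptger4 changed direction. The adjusted p of 0.001 was applied to the main fit, so it could change a call but no direction. Ptger4, called in no setting, had a log2 fold change of -0.31 by limma on log2(TPM + 1) and -0.32 on log2(TPM + 0.1). Those settings moved the median of all genes by -0.40 and -0.41 on the log2 scale and gave 3124 higher and 5962 lower calls, or 3051 and 5948, against 4468 and 4333 in the main test, and DESeq2 gave 4633 and 4774. The total count as the only scaling, added after the data were seen, moved that median by 0.12. At an adjusted p of 0.001, 2134 genes were higher and 2380 lower. With each library left out in turn, the wider pathway list had 18 to 23 genes called higher and 8 to 13 lower, the upper values without endogenous replicate 1, where Slco2a1 (log2 fold change -0.93, adjusted p = 0.0206) and Cysltr2 (-1.34, 0.0138) were among the genes newly called lower. Limma on TPM gave 16 higher and 11 lower on that list, without Ptgr2, Ptgir and Mgst3 and with Slco2a1, Ptger1 and Alox8 lower, and an adjusted p of 0.001 gave 14 and 7. The log2 ratio of Ptger4 to Ptger2 differed by -1.93 with a pseudocount of 1 TPM. The log2 ratio of Alox5ap to Alox5 differed by -0.078 to 0.37 with single libraries left out, and the sign change came without endogenous replicate 1. The cause of these shifts was not tested.

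Replicate numbers did not pair the libraries, since same-numbered libraries come from different mice and their deviations correlated at 0.0129, 0.00221 and 0.0178. With the replicate number as a block, 4103 genes were higher and 3920 lower, the wider pathway list had 18 and 8, and the 10 genes kept 7 and 2. Depth limits the size of the changes of Ltc4s and Hpgds, which rest on 0 to 17 endogenous counts. The 3 against 3 design limits every permutation test to a p of at least 0.1.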
